A study of Mus musculus with 6 samples.

Results

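The transport genes described here are 40 mouse genes chosen by name: subunits of cytoplasmic dynein and of dynactin, regulators and adaptors of dynein, kinesins of the families 1, 2 and 3 that carry cargo, and the adaptors that join motors to mitochondria and vesicles. All 40 were found among the 23412 genes of the table. Their mRNA levels were measured by RNA-seq in undifferentiated mouse embryonic stem cells (mESCs) of strain 129Sv, in the line R1, which is wild type, and the line HN, which is Htt-/-. Each line gave 3 libraries, and replicates of the same number were collected on the same date. The methods keep undifferentiated mESCs in serum medium with LIF and inhibitors of VEGF and FGF receptors, of MEK and of GSK3. No other treatment of the sequenced cells is named. Each genotype was represented by 1 cell line, so an effect of the genotype and another difference between the lines cannot be told apart. The methods describe the 3 collections as separate batches of each line. The p-values rest on the spread between these collections, with each gene's variance drawn toward that of other genes.

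Cytoplasmic dynein is the motor that carries cargo toward the minus ends of microtubules, and most kinesins walk toward the plus ends. Dynactin is a large complex that binds dynein and, together with a cargo adaptor, makes it move over long distances. Huntingtin, the protein encoded by Htt, is a scaffold that binds dynein and, through its partner Hap1, dynactin and kinesin-1, and it is best known in this role from the transport of vesicles along axons. The comparison asks whether mRNA levels of this machinery differ in stem cells that lack Htt.

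RefSeq promoter windows, from 250 bases before to 50 bases after a transcript start, were matched for 32 of the 40 genes, with 40 windows in all. Those of 4 genes are printed, because these genes were singled out by the comparison of the lines described below. Of the 2 overlapping windows of Kif1b, the one whose transcript start lies nearer the gene start of GENCODE is shown. They are given 5′ to 3′ on the strand of the gene, in coordinates of GRCm38.p6. Capitals mark matches on either strand to the GC box GGGCGG, the CCAAT box, the TATA box TATAAA and the cyclic AMP response element TGACGTCA.
Dync1h1, chr12:110601145-110601444, plus strand: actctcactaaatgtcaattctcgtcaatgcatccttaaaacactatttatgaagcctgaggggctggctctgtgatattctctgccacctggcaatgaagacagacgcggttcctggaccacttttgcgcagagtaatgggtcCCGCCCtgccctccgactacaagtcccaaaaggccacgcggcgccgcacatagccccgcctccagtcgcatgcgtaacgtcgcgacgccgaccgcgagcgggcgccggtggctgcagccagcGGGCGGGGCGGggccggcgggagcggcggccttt
Kif1b, chr4:149307649-149307948, minus strand: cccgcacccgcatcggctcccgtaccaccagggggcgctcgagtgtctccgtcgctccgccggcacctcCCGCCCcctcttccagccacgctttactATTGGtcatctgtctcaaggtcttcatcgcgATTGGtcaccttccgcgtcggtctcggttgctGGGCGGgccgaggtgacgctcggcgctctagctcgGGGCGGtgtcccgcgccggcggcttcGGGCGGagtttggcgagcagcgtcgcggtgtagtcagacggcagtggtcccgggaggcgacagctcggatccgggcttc
Kif5c, chr2:49619036-49619335, plus strand: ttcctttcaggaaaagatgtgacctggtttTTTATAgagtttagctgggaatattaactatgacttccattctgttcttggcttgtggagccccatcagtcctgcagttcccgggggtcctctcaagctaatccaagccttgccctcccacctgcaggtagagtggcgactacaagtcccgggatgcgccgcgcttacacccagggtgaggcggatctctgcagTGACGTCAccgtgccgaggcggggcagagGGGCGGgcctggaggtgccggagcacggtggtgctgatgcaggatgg
Klc3, chr7:19404055-19404354, minus strand: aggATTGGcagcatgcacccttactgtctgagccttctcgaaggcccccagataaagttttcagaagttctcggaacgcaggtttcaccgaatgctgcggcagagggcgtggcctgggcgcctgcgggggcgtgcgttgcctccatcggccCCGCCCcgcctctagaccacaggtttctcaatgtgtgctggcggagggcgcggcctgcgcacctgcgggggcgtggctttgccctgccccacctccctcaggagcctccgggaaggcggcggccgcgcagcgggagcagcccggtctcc
The run of capitals near the end of the Dync1h1 window holds 2 GC boxes that share a base, and the other matches in these windows lie apart. All 4 windows hold a GC box, and the windows of Kif1b and Klc3 also hold a CCAAT box. That of Kif5c holds a cyclic AMP response element. It also holds the letters TATAAA on the opposite strand, near the 5′ end of the window and not near the transcript start. The GC box was present in 70% of the windows of transport genes and in 35.7% of the 32851 RefSeq windows. The shares for the CCAAT box were 37.5% and 37.4%, for the TATA box 5% and 13.6%, and for the cyclic AMP response element 10% and 1.79%. The core of the NRF1 site was found in 2 windows (5%, against 0.971% of all), those of Dync1li1 and Kifap3, and the ETS core CCGGAAG in 15% (8.86% of all). TTCAGCACC, one part of the RE1 element bound by the neuronal repressor REST, was found in 0 windows (0.371% of all). The median window of a transport gene was 60.8% G and C and held 21.5 CG pairs, compared with 52.7% and 7 over all windows, which include many genes that stem cells do not express. These letters are a description of the windows, and no measurement of binding was analysed.

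The 6 libraries held between 1640391 and 3866717 reads on genes. The transport genes took 0.324% of the normalized counts in R1 and 0.338% in HN, and their reads per gene and library ran from 2 to 1904. Htt mRNA, the check of the labels, was at normalized counts of 230, 257 and 199 in R1 and of 18.3, 58.1 and 54.2 in HN, a log2 fold change of -2.52 (BH-adjusted p = 0.0141 by limma). The summed normalized counts of 8 pluripotency markers lay between 13989 and 19662 in R1 and between 15473 and 21141 in HN. Single markers moved both ways. Zfp42 was at 2009, 2381 and 1886 in R1 and at 1061, 1295 and 1272 in HN. Tfcp2l1 was at 3744, 3623 and 3091 in R1 and at 6216, 5235 and 4162 in HN. By limma 0 of the 8 passed a BH-adjusted p under 0.05. DESeq2 on the recovered reads gave 0 higher in HN and 1 lower, where 68 and 43 of the 14276 tested genes passed. With the collection date as a block, limma gave 4 of the 8 higher in HN and 1 lower (5.46% and 4.02% of all tested genes). The summed normalized counts of 5 fibroblast markers reached at most 99.7, and Dcn was at 3 reads or fewer in every library. Of the 4 fibroblast markers tested, limma with the block gave 0 higher in HN and 1 lower at a BH-adjusted p under 0.05. Thy1 was at 35.1, 24.4 and 40.4 in R1 and at 13.4, 4.25 and 19.5 in HN. The summed normalized counts of 6 neural markers lay between 275 and 318 in R1 and between 190 and 284 in HN, with Dcx at 3 reads or fewer in every library. Of the 5 neural markers tested, 3 had a positive and 2 a negative fold change. At the same threshold limma with the block gave 0 of these 5 higher and 1 lower. Tubb3 was at 201, 269 and 133 in R1 and at 82.7, 149 and 120 in HN. Nes was at 21.3, 11.8 and 33.7 in R1 and at 29.2, 19.1 and 47.7 in HN. In such bulk samples fewer cells of a type and less RNA per cell cannot be told apart, and the part of such cells in the results was not tested.

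mRNA levels of the transport genes in HN mESCs were close to those in R1 mESCs. All 40 genes had a mean normalized count of at least 5 and were tested, and 0 of them differed between the lines at a BH-adjusted p under 0.05 by limma, where 0.119% of the 14276 tested genes were higher in HN and 0.126% were lower (0.245% in either direction, all by more than 2-fold). At an unadjusted p under 0.05, 1 gene, Kif5c, was higher in HN (3.15% of all tested genes) and 0 were lower (2.75%). edgeR on the recovered reads also gave 0 at the adjusted and 1 at the unadjusted threshold, and DESeq2 gave 0 at both. Fold changes were positive for 21 genes and negative for 19, with a median log2 fold change of 0.02 (all tested genes, -0.01). In size, 38 of the 40 were smaller than 0.5, a share that was not computed over all tested genes. The median size was 0.194 for the transport genes and 0.215 over all tested genes, so changes this small were common.

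The precision of this comparison can be read from the intervals. The 95% interval of the log2 fold change lay within -1 and 1, which is within 2-fold in either direction, for 35 of the 40 genes, compared with 55% of all tested genes. A mean normalized count of at least 50 was reached by 33 of the 40 and by 7659 of the 14276 genes tested. The genes with wider or shifted intervals were Dync1i1, Dynll2, Kif1a, Klc3 and Rhot2. The median standard error of a log2 fold change was 0.24 among the transport genes.

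With the collection date as a block, so that HN was compared with R1 collected on the same date, 2 genes were higher in HN at a BH-adjusted p under 0.05 by limma and 0 were lower. They were Dync1h1 and Kif1b. On the recovered reads with the block, the BH-adjusted p of Dync1h1 was 0.00626 by edgeR and 0.0471 by DESeq2, and that of Kif1b was 0.00607 by edgeR and 0.135 by DESeq2. The shares among all tested genes were 5.46% higher and 4.02% lower, so that 2 of 40 is near the background. Neither gene passed 2-fold (0 of 40, against 1.95% of all tested genes), and at an unadjusted p under 0.05 the counts were 6 higher (11.2%) and 1 lower (10.4%). The median standard error fell to 0.15, and the interval lay within 2-fold for 38 of 40 genes (71.2% of all tested genes), all but Dync1i1 and Klc3.

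**Figure D1:**
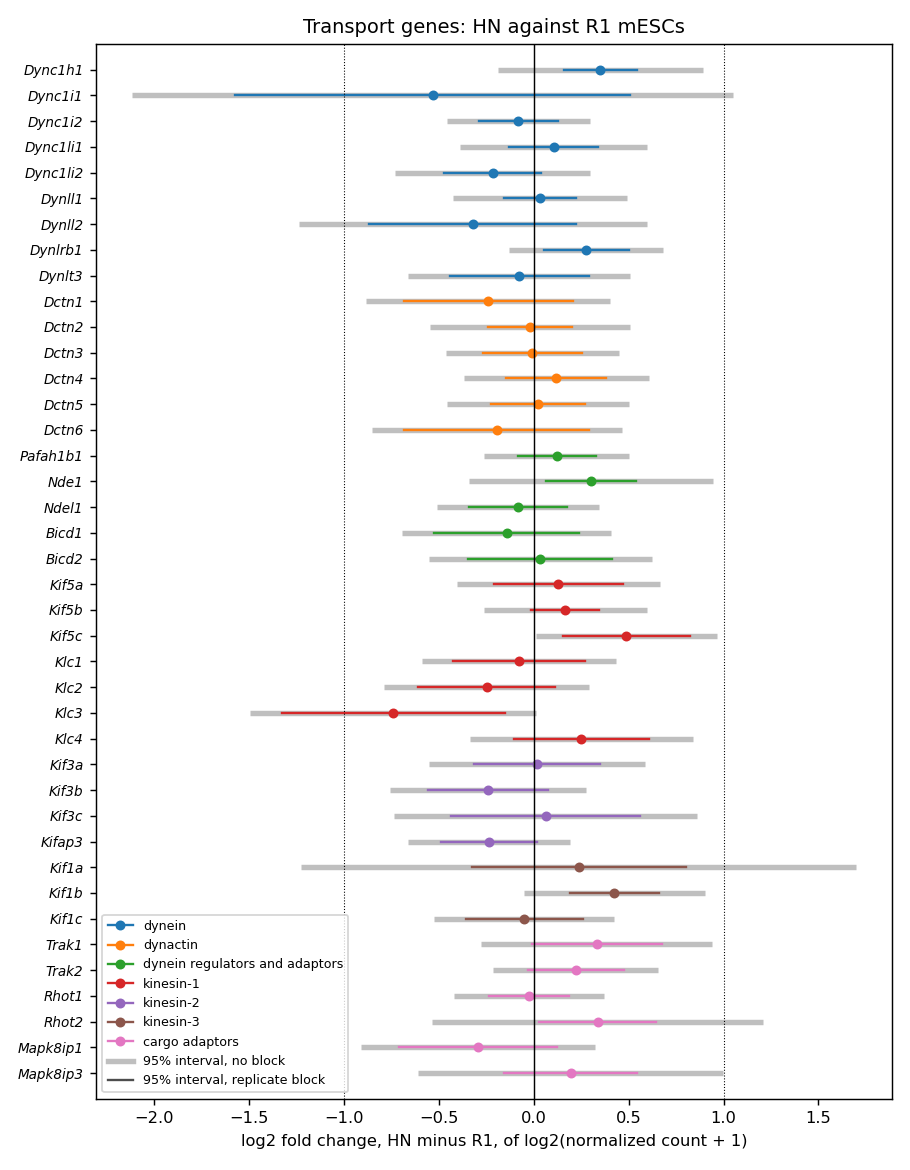
Log2 fold change of HN over R1 on the scale of log2(normalized count + 1) for the 40 transport genes, coloured by role. Points are estimates, thick grey bars the 95% intervals without a block, thin bars those with the collection date as a block, and dotted lines mark 2-fold. The estimates run from -0.74 for Klc3 to 0.49 for Kif5c, and 35 of the 40 grey bars stay between the dotted lines.

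Among the 9 dynein genes, Dync1h1, which encodes the heavy chain that holds the motor domain, had normalized counts of 1055, 918 and 566 in R1 and of 1142, 1186 and 840 in HN. HN was the higher in all 3 same-date pairs, while the values of the lines overlapped because both libraries of the third date were low. R1 averaged 846 ± 252 and HN 1056 ± 188 (SD, n = 3 each). The log2 fold change was 0.35, a 1.28-fold difference, with a standard error of 0.25 and an adjusted p of 0.99998 by limma without the block, and a standard error of 0.09 and an adjusted p of 0.0130 by limma with it. In the blocked fit without the first collection date the log2 fold change of Dync1h1 was 0.47 (BH-adjusted p = 0.000461 by limma). Without the second it was 0.34 (adjusted p = 0.247) and without the third 0.24 (adjusted p = 0.0687), so the call was lost without the second or the third date.

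Dynlrb1, which encodes a roadblock light chain, had the highest level per kb of exon of all 40 genes. It was at normalized counts of 341, 349 and 279 in R1 and of 409, 354 and 408 in HN. The 2 lines did not overlap, by a gap between 349 and 354. The log2 fold change of Dynlrb1 was 0.28 with a standard error of 0.19, and its adjusted p was 0.99998 by limma without the block and 0.116 with it.

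The other 7 dynein genes had log2 fold changes between -0.53 and 0.10, and all adjusted p-values without and with the block were above 0.05 by limma. The lowest was that of Dync1i1, the intermediate chain known from neurons, which had only 2 to 9 reads in a library and an interval from -2.11 to 1.05. Its paralog Dync1i2, the intermediate chain used in most cells, was at 381 ± 14.9 in R1 and 360 ± 15.6 in HN (SD, n = 3), a log2 fold change of -0.08.

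The 6 dynactin genes had log2 fold changes from -0.24 to 0.12 and a smallest adjusted p of 0.590 by limma with the block. Dctn3, the subunit p24 of the shoulder of the complex, had the highest level per kb of exon of them. Per kb of the transcript with the longest coding sequence, Dctn2 was higher than Dctn3, at 261 against 207. The libraries of Dctn3 were at 255, 178 and 177 in R1 and 191, 208 and 198 in HN, so that the R1 library of the first date was the highest and the other 5 lay together. Dctn1, which encodes the large subunit p150Glued that contacts dynein and the microtubule, was at 44.8 ± 7.20 in R1 and 38.4 ± 10.1 in HN (SD, n = 3), a log2 fold change of -0.24 with an interval from -0.88 to 0.40.

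The 5 regulators and adaptors of dynein had log2 fold changes from -0.14 to 0.30 and a smallest adjusted p of 0.103 by limma with the block, that of Nde1. Nde1 encodes a protein that links LIS1 to dynein. In normalized counts it was at 227, 337 and 162 in R1 and at 332, 352 and 198 in HN, higher in HN in all 3 same-date pairs, with a log2 fold change of 0.30 and a standard error of 0.29 without the block. Pafah1b1, which encodes LIS1 itself, was at 452 ± 9.12 in R1 and 493 ± 47.6 in HN (SD, n = 3), a log2 fold change of 0.12. The related Ndel1 was at -0.08, and the cargo adaptors Bicd1 and Bicd2 were at -0.14 and 0.04 on the same scale.

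Kinesin-1, the motor with 2 heavy chains and 2 light chains, held both the highest and the lowest fold change of the 40 genes. Kif5c, a heavy chain known from neurons, had normalized counts of 66.0, 59.9 and 68.7 in R1 and of 88.8, 85.1 and 100.7 in HN. Every HN library was above every R1 library. The means were 64.9 ± 4.51 and 91.5 ± 8.18 (SD, n = 3), a 1.40-fold difference. The log2 fold change of Kif5c was 0.49 with a standard error of 0.22 (unadjusted p = 0.0456, BH-adjusted p = 0.827 by limma). With the block the adjusted p was 0.0540 by limma, and on the recovered reads with the block it was 0.0345 by edgeR and 0.406 by DESeq2. It lay between 0.0902 and 0.347 by limma in the blocked fits without 1 collection date.

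Klc3 encodes a light chain that is best known from spermatids. Its normalized counts were 31.9, 23.7 and 28.3 in R1 and 19.5, 13.5 and 16.3 in HN, at 15 to 32 reads a library. Every HN library of Klc3 was below every R1 library, and the same-date differences on the log2 scale were -0.69, -0.77 and -0.76. The log2 fold change was -0.74 with a standard error of 0.35, a fold of 0.599, and the adjusted p was 0.870 by limma without the block and 0.107 with it. Of the exon bases of Klc3, 28.1% are overlapped by exons of Ercc2 on the opposite strand, and the library kit does not mark strand, so reads there cannot be told apart. Ercc2, a DNA repair helicase, had the opposite sign, with 115 ± 37.1 normalized counts in R1 and 157 ± 42.8 in HN (SD, n = 3), a log2 fold change of 0.47 with an adjusted p of 0.99998 by limma without the block and 0.0259 with it.

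Kif5b, the heavy chain that most cells use, had the highest level per kb of exon of the kinesin-1 genes. Its normalized counts were 984, 1244 and 891 in R1 and 1096, 1350 and 1044 in HN. HN was the higher in all 3 same-date pairs and the lines overlapped. The log2 fold change of Kif5b was 0.17 with an interval from -0.26 to 0.60. Kif5a, Klc1, Klc2 and Klc4 had log2 fold changes from -0.25 to 0.25.

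**Figure D2:**
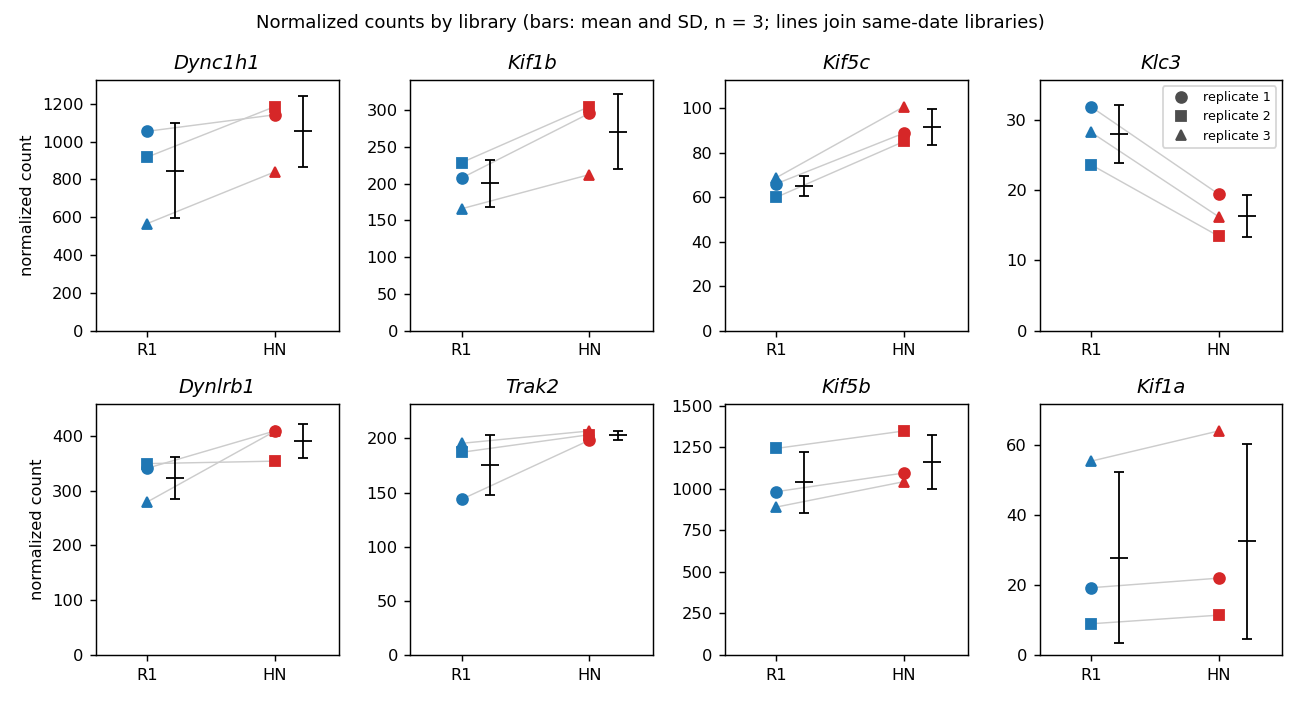
Normalized counts of 8 transport genes in each library, with R1 in blue and HN in red, marker shape for the replicate, grey lines joining libraries of the same date, and the mean and SD of each line (n = 3) in black. In Kif5c, Dynlrb1 and Trak2 all HN libraries are above all R1 libraries and in Klc3 all are below, while in Kif1a the third date, at 55.3 and 63.9, stands above the other 4 libraries.

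The 4 genes of kinesin-2, the motor of cilia and of several vesicle types, had log2 fold changes from -0.24 to 0.06. Kifap3, the accessory subunit that binds cargo, had the highest level per kb of exon of them. Its normalized counts were 198, 179 and 182 in R1 and 180, 155 and 142 in HN, and HN was the lower in all 3 same-date pairs. The highest HN library of Kifap3 was just above the lowest R1 library, and the adjusted p was 0.99998 by limma without the block and 0.283 with it. Kif3c is read with a limit, since 40.7% of its exon bases are overlapped by genes on the opposite strand.

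Of the 3 kinesin-3 genes, which carry synaptic vesicle precursors, mitochondria and other organelles, Kif1b had normalized counts of 208, 229 and 166 in R1 and of 296, 305 and 212 in HN. HN was the higher in all 3 same-date pairs, by 0.51, 0.41 and 0.35 on the log2 scale, and the HN library of the third date lay within the R1 range. The means were 201 ± 32.0 and 271 ± 51.0 (SD, n = 3), a 1.34-fold difference. The log2 fold change of Kif1b was 0.43, with an adjusted p of 0.957 by limma without the block and of 0.0131 with it. Without the first or the second collection date the blocked adjusted p of Kif1b was 0.0646 and 0.199 by limma, and without the third it was 0.00723. Kif1c was at 103 ± 11.4 in R1 and 99.1 ± 13.1 in HN (SD, n = 3), a log2 fold change of -0.05.

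Among the 6 cargo adaptors, Trak2, which joins motors to the mitochondrial protein Miro, had normalized counts of 144, 187 and 195 in R1 and of 198, 203 and 207 in HN. The lines did not overlap, and the log2 fold change was 0.22 with a standard error of 0.20. Rhot1, which encodes Miro1 and had the highest level per kb of exon of the adaptors, was at 390, 348 and 400 in R1 and at 355, 350 and 415 in HN, a log2 fold change of -0.02 with an interval from -0.42 to 0.37. The others, Trak1, Rhot2 and the JNK scaffolds Mapk8ip1 and Mapk8ip3, had log2 fold changes from -0.29 to 0.34 and adjusted p-values above 0.05 by limma in both fits. Rhot2 has 31.2% of its exon bases overlapped by other genes on its own strand.

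Over the 40 genes, 3 had all HN libraries above all R1 libraries (Dynlrb1, Kif5c and Trak2, against 5.23% of all tested genes) and 1 had them below (Klc3, against 5.54%). HN was the higher in all 3 same-date pairs for 11 genes (20.3% of all tested genes) and the lower for 8 (21.1%).

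Levels were compared between paralogs as normalized counts per kb of exon, averaged over the 6 libraries. They spanned a range of 185-fold over the 40 genes, from 1.91 per kb for Dync1i1 to 353 per kb for Dynlrb1. Kif5b was the leading kinesin-1 heavy chain, with 85.8 ± 3.502% of the summed Kif5 level in R1 and 84.9 ± 2.30% in HN (SD, n = 3), followed by Kif5a at 8.09 ± 2.63% and 7.56 ± 0.920% and Kif5c at 6.12 ± 1.23% and 7.57 ± 1.39%. The shares of Kif5a and Kif5c did not differ beyond their spread in either line, and the shares of each heavy chain overlapped between the lines.

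The intermediate chains and the LC8 light chains of dynein were also led by a single paralog. The level per kb of Dync1i2 was 23.4 times that of Dync1i1, and that of the light chain Dynll1 was 18.7 times that of Dynll2. Dync1li1 exceeded Dync1li2 by 2.51 times, and its share of the pair was higher in every HN library (71.6% to 75.5%) than in every R1 library (65.5% to 71.2%). Klc4 was the highest of the light chains of kinesin-1, at 37.7 ± 4.78% in R1 and 46.7 ± 7.35% in HN, and Klc3 the lowest, at 14.0 ± 2.79% and 8.49 ± 1.94% (SD, n = 3). Of the shares of all paralog families, only those of Dync1li1 and Dync1li2 and that of Klc3 did not overlap between the lines. No background rate was computed for such shares. For them an exact permutation test of 3 against 3 libraries cannot go below a two-sided p of 0.1.

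Kif3a and Kif3b, partners in the same motor, were at 48.9 ± 4.99% and 40.1 ± 0.826% of the Kif3 level in R1 and at 52.7 ± 7.64% and 36.2 ± 5.003% in HN (SD, n = 3). Kif3c made up 10.98% and 11.2%. Kif1b and Kif1c were at 40.01 ± 5.998% and 49.4 ± 4.21% of the Kif1 level in R1 and at 47.3 ± 8.15% and 41.8 ± 3.52% in HN, so neither led in both lines. The order of Bicd1 and Bicd2, of Kif1b and Kif1c and of Klc1 and Klc2 turned when the length of the transcript with the longest coding sequence took the place of the exon length, a choice added after the data were seen. Those pairs are therefore not ranked.

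**Figure D3:**
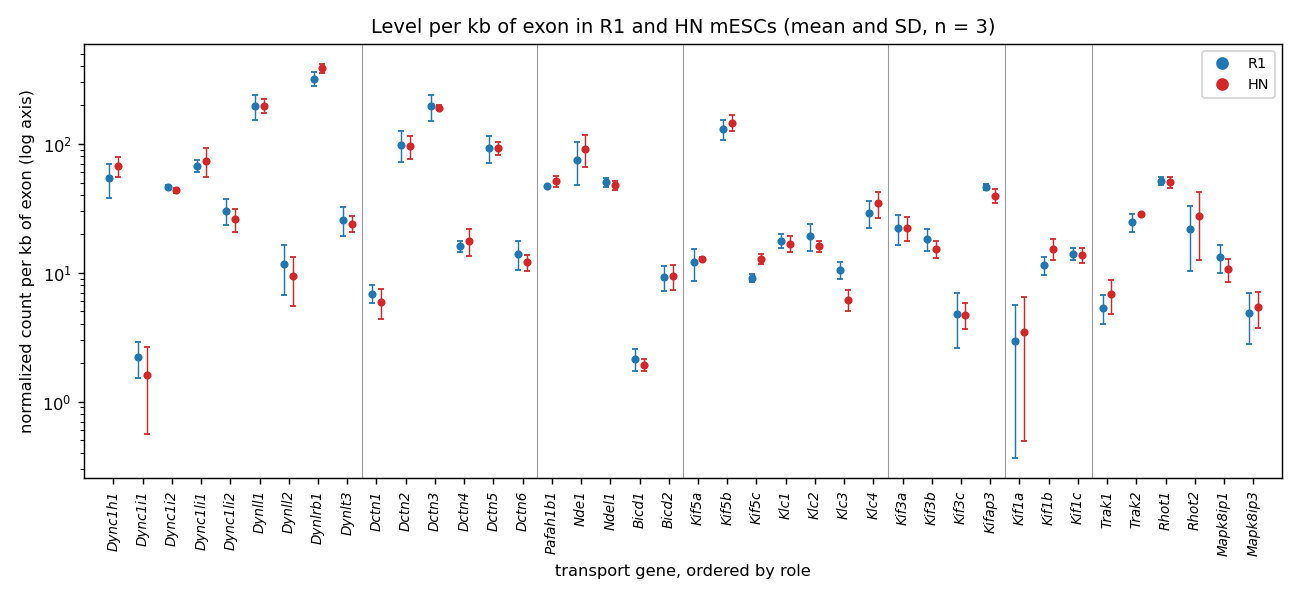
Normalized counts per kb of exon of the 40 transport genes on a log axis, ordered by role, with the mean and SD of the 3 R1 libraries in blue and of the 3 HN libraries in red. Dynlrb1, Dynll1, Dctn3 and Kif5b stand highest, and Dync1i1, Bicd1 and Kif1a are among the lowest in both lines. The place of Bicd1 depends on the length used, with 2.04 per kb of exon and 19.1 per kb of the transcript with the longest coding sequence.

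The collection date took a larger share of the spread of the transport genes than the line did. Of the 40 genes, 16 differed between the 3 dates at a BH-adjusted p under 0.05 in limma's F test with the line as a covariate, where 46% of all tested genes did. The median share of a gene's sum of squares was 65.0% for the date, 13.2% for the line and 15.3% for what remained (68.3%, 9.96% and 12.0% over all tested genes), and the date took more than the line in 32 of 40 genes (81.3% of all). The date has 2 terms and the line 1, so with no effect of either the date would still tend to take more. These shares are a description, and date and line were not tested against each other. By role the date test passed for 5 of 9 dynein genes, 2 of 6 dynactin genes, 1 of 5 regulators, 1 of 7 kinesin-1 genes, 2 of 4 kinesin-2 genes, 2 of 3 kinesin-3 genes and 3 of 6 cargo adaptors.

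Kif1a, a motor of synaptic vesicle precursors, had the largest shift at the third date of the 40 genes. Normalized counts at the first, the second and the third date were 19.2, 8.88 and 55.3 in R1 and 21.9, 11.3 and 63.9 in HN. The third date exceeded the mean of the first 2 by 1.97 on the log2 scale, while the log2 fold change between the lines was 0.24. The adjusted p of Kif1a was 4.94e-06 by limma's F test of any difference between the 3 dates. Rhot2 was highest at the second date in both lines, at 154 in R1 and 198 in HN, against 78.8 and 56.6 in R1 and 86.4 and 81.2 in HN at the first and the third (adjusted p = 2.03e-06).

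The third date was lower for Mapk8ip3 by 1.05 on the log2 scale (adjusted p = 0.000135), for Nde1 by 0.78 (adjusted p = 1.70e-05), for Dync1h1 by 0.63 (adjusted p = 3.79e-05) and for Dctn2 by 0.56 (adjusted p = 0.000826), all by limma's F test. It was higher for Dynll2 by 0.79 (adjusted p = 0.0176) and for Kif3a by 0.54 (adjusted p = 0.0337), by the same test. The F test asks for any difference between the 3 dates, and the shift of the third date by itself was not tested. Dynll2 was at 22.4, 25.9 and 47.2 in R1 and at 13.4, 31.2 and 32.5 in HN, so in HN the first date stood apart. Both libraries of the third date were above the other 4 for 5 genes (21.3% of all tested genes) and below them for 9 (20.9%). The third date also held the R1 library with the fewest reads, and the shift at the third date had a median of 0.55 on the log2 scale over the 6617 tested genes with a mean normalized count under 50 and of -0.26 over the 7659 genes above it. The medians were 0.22 for the 7 transport genes under 50 and -0.24 for the other 33. Summed primitive endoderm markers were at 159 and 142 at the third date and between 36.2 and 62.1 at the others. Summed fibroblast markers were also highest at the third date, at 99.7 in R1 and 62.8 in HN. At the first and the second date they were at 58.55 and 36.2 in R1 and at 35.3 and 16.3 in HN. Pdgfra is in both lists. The part of depth and of such cells in these shifts was not tested.

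**Figure D4:**
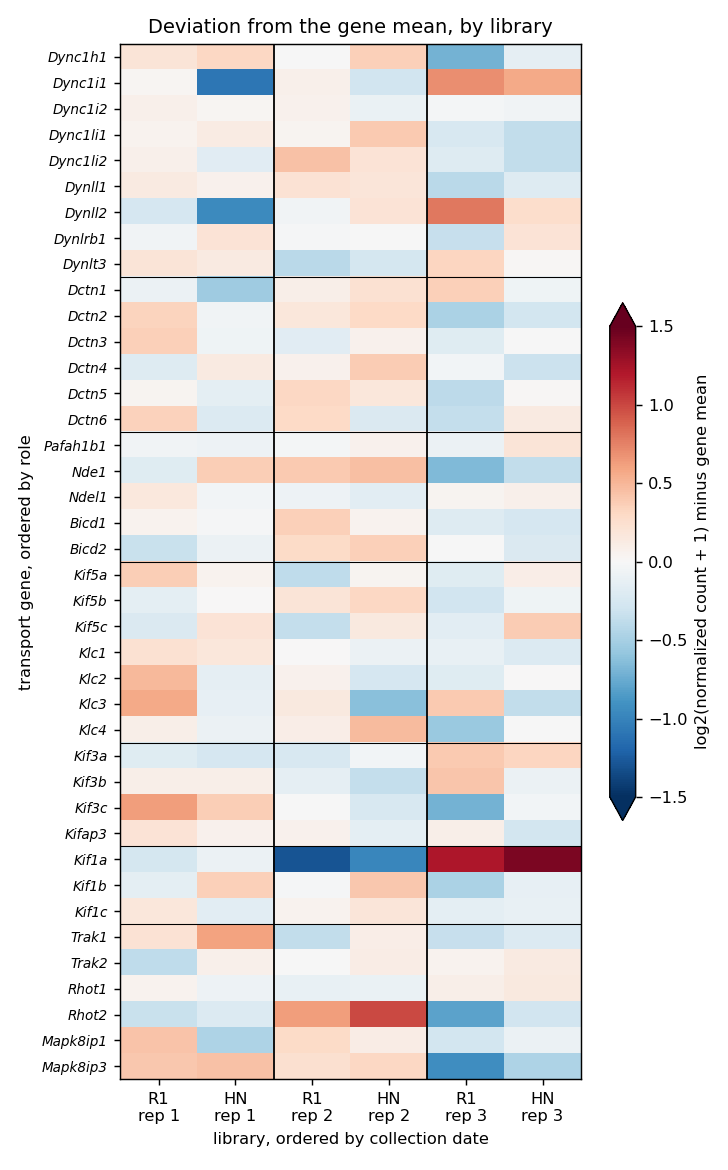
Deviation of each of the 40 transport genes from its own mean on the scale of log2(normalized count + 1), with the 6 libraries side by side by collection date and genes ordered by role. Neighbouring R1 and HN columns of a date are alike for many genes, as in Kif1a, high at the third date, and Mapk8ip3 and Nde1, low there.

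Further genes of the same machinery were counted from lists of related genes. Without the block 0 genes of these 5 lists differed between the lines at a BH-adjusted p under 0.05 by limma, edgeR or DESeq2, and at an unadjusted p under 0.05 limma gave 1 higher and 2 lower (3.15% and 2.75% of all tested genes). With the block the shares of all tested genes at the adjusted threshold were 5.46% higher and 4.02% lower, and of the 7 genes of these lists that passed, named below, DESeq2 with the block called only Kifc3 (adjusted p = 0.0118). With the block, among 13 tested further subunits of dynein and dynactin, 0 were higher and 1 was lower, Dynlt1b (log2 fold change -1.07, adjusted p = 0.0426 by limma), a light chain of a multi-copy family whose reads may be split between copies. DESeq2 with the block gave no adjusted p for Dynlt1b. None of 11 further dynein adaptors, Hook and ninein proteins among them, passed in either direction with the block (0 of 11, with 1 at an unadjusted p under 0.05 by limma).

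Among 14 other kinesins without a main role in mitosis, 1 was higher with the block, Kif13b (0.48 on the log2 scale, adjusted p = 0.00920 by limma), a carrier of vesicles, and 2 were lower, Kifc3 (-0.82, adjusted p = 0.000258) and Kif26a (-0.90, adjusted p = 0.00450). Kifc3, a minus-end directed kinesin, had normalized counts of 129, 174 and 97.0 in R1 and of 71.8, 90.7 and 59.6 in HN, with no overlap between the lines. The adjusted p of Kif13b by DESeq2 with the block was 0.130 and that of Kif26a 0.111. Among 13 mitotic kinesins 2 were higher and 0 lower, Kif14 (0.40, adjusted p = 0.0335 by limma) and Kif18b (0.47, adjusted p = 0.00631). By DESeq2 with the block their adjusted p-values were 0.265 and 0.0534. Among 11 further cargo adaptors 1 was higher and 0 lower, Arl8a (0.55, adjusted p = 0.00572 by limma), a small GTPase that recruits kinesin to lysosomes. Its normalized counts were 135, 109 and 116 in R1 and 195, 182 and 151 in HN, with no overlap between the lines, and its adjusted p was 0.101 by DESeq2 with the block. Without the second date, Kifc3 alone of these 7 genes passed by limma with the block (adjusted p = 0.0314).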

How the data were processed

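Total RNA of R1 and HN mESCs was sequenced as 50 nucleotide pairs after TruSeq RNA v2 library preparation. The deposited values are normalized counts, a signal per gene for which the authors used STAR (mouse build mm10/GRCm38), Picard to drop PCR duplicates, HTSeq for exon counts and DESeq2 size factors. Versions, the annotation and the strand setting of the counting are not given in the sources used here. Values were whole multiples of 1 read in 100% of cases (tolerance 0.01 reads), so the reads were recovered for depth and for edgeR 4.0.16 and DESeq2 1.42.0 as alternatives. The kit has no molecular identifiers, so reads are not all separate molecules. Unused columns of per-sample values numbered 0, and 27 rows had names that a spreadsheet had turned into dates.

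log2(normalized count + 1) was compared between lines with limma 3.58.1 (R 4.3.3, variance trend) over the 14276 genes with a mean of at least 5, with Benjamini-Hochberg (BH) adjustment over all of them. Differences on this scale understate changes of low genes. Replicate numbers mark shared collection dates in the labels. Deviations of same-date libraries from their line's mean correlated at 0.25, 0.69 and 0.77 across genes. Those of libraries of different dates correlated between -0.71 and 0.34. The value of 0.34, for R1 replicate 1 with HN replicate 2, was above the 0.25 of the first date. Values with the replicate block are given where they change a call. Scripts were tested on simulated data. Exon lengths, positions and overlaps came from GENCODE M21. The members, lists and tests were chosen with earlier results of these data known. Values per library are given for genes past the adjusted threshold with or without the block, for the 2 smallest unadjusted p-values in each direction and for the highest level per kb in each role. Trak2, Kif1a and Rhot2 were singled out after their values were seen.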

Additional observations from a re-analysis of the deposited data

How the results depend on the processing

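The count of 0 transport genes past the adjusted and 2-fold thresholds and the count of 0 lower in HN held under all alternatives run, and the median log2 fold change lay between -0.05 and 0.05, on either side of 0, under those planned. The count higher in HN, 0 without the replicate block, became 2 with it by limma, 3 by edgeR and 1 by DESeq2, and with the block and one collection date left out, an alternative added after the data were seen, it was 1 without the first date, 0 without the second and 1 without the third. The blocked fits compare libraries of the same date, and with the block no transport gene was lower or passed 2-fold at the adjusted threshold. Of the 40 genes, 22 kept one sign in every planned setting in which they were tested (18 for genes with a mean of at least 50 and 17 for the others), and 3 (Dync1h1, Kif1b and Kif5c) passed the adjusted threshold in at least 1. The count differing between dates was 16, lay between 12 and 16 under the other settings and was 0 without a variance trend. Without that trend 0 of all tested genes passed (10 transport genes at an unadjusted p under 0.05 by limma). The 12 was out of the 33 transport genes tested at a mean of at least 50 (36.4%), where 53.4% of all tested genes passed. Fold changes near 0 changed sign, and so did some larger ones. With single libraries left out, Rhot2, at 0.34 with all libraries, ran from -0.075 to 0.73. Dynll2, at -0.32, ran from -0.53 to 0.075, and Mapk8ip3, at 0.19, from -0.23 to 0.47. Dctn3 was at 0.0023 by edgeR with the block, at 0.0068 with median centring, at 0.20 with the block without the first date and between -0.097 and 0.17 with single libraries left out. Kif1c was at 0.086 and Rhot1 at 0.029 with the block without the first date, and they ran from -0.15 to 0.022 and from -0.10 to 0.019 with single libraries left out. Kif1a ran from -0.41 to 0.90 in the same way and was negative without R1 replicate 2 or HN replicate 3. Htt ran from -2.81 to -2.002, and its adjusted p was 0.122 without R1 replicate 1 and 0.325 without a variance trend. At 2 to 9 reads a library, Dync1i1 had an interval from -2.11 to 1.05 without the block and from -1.58 to 0.51 with it.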
